A study of Rattus norvegicus with 18 samples.

Results

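Axon guidance ligands and receptors are the secreted and membrane-bound proteins that steer growing axons and migrating cells. Those followed here were the semaphorins and plexins, the ephrins and Eph receptors, the netrins and Unc5 receptors, and the Slits and Robo receptors. They were chosen by name alone, as every probe that was not a control and whose gene name on the array began with the symbols of these families. This gave 61 genes carried by 90 probes, out of 35287 gene names on the array. The brightest probe of a gene, by its mean over all arrays, stood for the gene. The pattern also took in Unc50, whose name resembles that of the Unc5 receptors but which does not belong to them. It is kept in every count and stands outside the 8 families. The gene listed as Ntn2l is named Ntn3 in RefSeq and is called Ntn3 below.

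The tissue was the proximal segment of the transected sciatic nerve of adult male Sprague-Dawley rats, the side of the cut that stays joined to the spinal cord. It was sampled at 0, 0.5, 1, 3, 6 and 9 h after a piece of the nerve had been removed, with 3 one-colour Agilent arrays for each of the 6 time-points and 18 in all. All rats carried the same lesion and no treatment or allele was varied, so the only labelled difference between groups was the time after transection, and the 0 h arrays served as the control. Neither the labels nor the methods say whether an array held the RNA of a single rat or of a pool, so P-values measure the spread between these arrays, which may be technical.

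Guidance molecules mostly work as pairs of a ligand on one cell and a receptor on another. Class 3 semaphorins are secreted and bind neuropilins that signal through plexins, whereas semaphorins of the other vertebrate classes bind plexins directly. Ephrins are anchored to the membrane and bind Eph receptor tyrosine kinases on a neighbouring cell. Netrins attract through Dcc and repel through Unc5 receptors, and Slits repel through Robo receptors. In peripheral nerve these genes are active not only in axons but also in Schwann cells (SCs), perineurial and endoneurial fibroblasts, blood vessels and immune cells. The RNA measured here is that of the whole segment, in which axons bring little RNA of their own, and in such tissue fewer cells of a type and less RNA per cell cannot be told apart.

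Values are log2 normalized signal, the log2 of an array's processed intensity minus the 75th percentile of that array, so that a step of 1 is a 2-fold change of signal. Of the 61 genes, 54 were tested, having passed the scanner's background test on every array of 1 or more time-points. At 0 h 49 passed on each of the 3 arrays, and 43 passed on all 18. Efna5, Efnb2, Epha6, Plxna4 (listed as Plxna4a), Sema3e, Sema4d and Unc5d had no brightest probe that passed and have no value here. Precision is limited by the 3 arrays of a group. All 12 SC markers were well above background on all 18 arrays. Some arrays stood apart from their own group. The third array of 1 h differed by more than 0.5 from both other arrays of 1 h in 18 of the 54 tested guidance genes (33.3%, against 16.1% of all genes tested), and the first array of 6 h and the third of 9 h did so in 12 each (22.2%, against 19.1% and 20.9% of all genes). The second array of 0.5 h did so in 8 (14.8%, against 5.24% of all genes). Skeletal muscle markers varied widely within time-points. The lowest and highest sum of their linear signal was 93.1 and 1308 among the 0 h arrays, highest on the first, and 1.02 and 123 among those of 9 h, and none of the 7 was called.

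A gene was called when limma's moderated test gave an unadjusted P-value below 0.01 and a Benjamini-Hochberg adjusted P-value below 0.05 over all 32109 probes tested. By the F-test over the 6 time-points 19 of 54 guidance genes were called, or 35.2%, where 34.6% of all 27200 genes tested were called, so the guidance genes as a whole changed about as often as any others. By family the F-test called 8 of 18 tested semaphorins, 2 of 7 plexins, 3 of 5 ephrins, 1 of 11 Eph receptors, 1 of 2 netrins, 1 of 3 Unc5 receptors, 2 of 3 Slits and 1 of 4 Robo receptors. One of the 8 semaphorins, Sema3a, passed the background filter at 6 h and 9 h alone, where it is high, and its call is no support for these counts. Among the 43 guidance genes above background on all 18 arrays the F-test called 20. The share of all genes called under that filter was not computed, so the 34.6% is no background for this count. At 0.5 h 2 guidance genes were higher than at 0 h (background 4.27% of all genes) and 1 was lower (background 1.72%). At 1 h 2 were higher (background 3.59%) and 2 lower (background 2.04%). At 3 h 5 were higher (background 7.16%) and 6 lower (background 6.85%). At 6 h 5 were again higher (background 12.0%) and 6 lower (background 13.0%), and at 9 h the same numbers held, 5 higher (background 15.8%) and 6 lower (background 15.4%). As shares of 54, the counts from 3 h on were 9.26% higher and 11.1% lower, above the background of either direction at 3 h and below it at 6 h and 9 h. The 3 h split rests on the second array of that time-point, without which 2 were higher and 4 lower, and without it and the second array of 1 h 1 was higher and 5 were lower. Without the third array of 0 h 3 were higher at 3 h. At 6 h 3 were higher without the second or the third array of 0 h or the first or second of 6 h. Taken against 0 h, the median change over the 54 was 0.18 at 1 h, 0.07 at 9 h and from 0.01 to 0.02 at the other time-points, where the median of all genes stayed between 0.00 and 0.02. Scaling moved these splits. When each array was shifted to its median, 3 rises stood beside 7 falls at 6 h and 3 beside 9 at 9 h. With quantile normalization 3 rises stood beside 6 falls at 6 h and 2 beside 1 at 1 h. The 5 comparisons share the 0 h arrays and are not independent of each other.

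**Figure D1:**
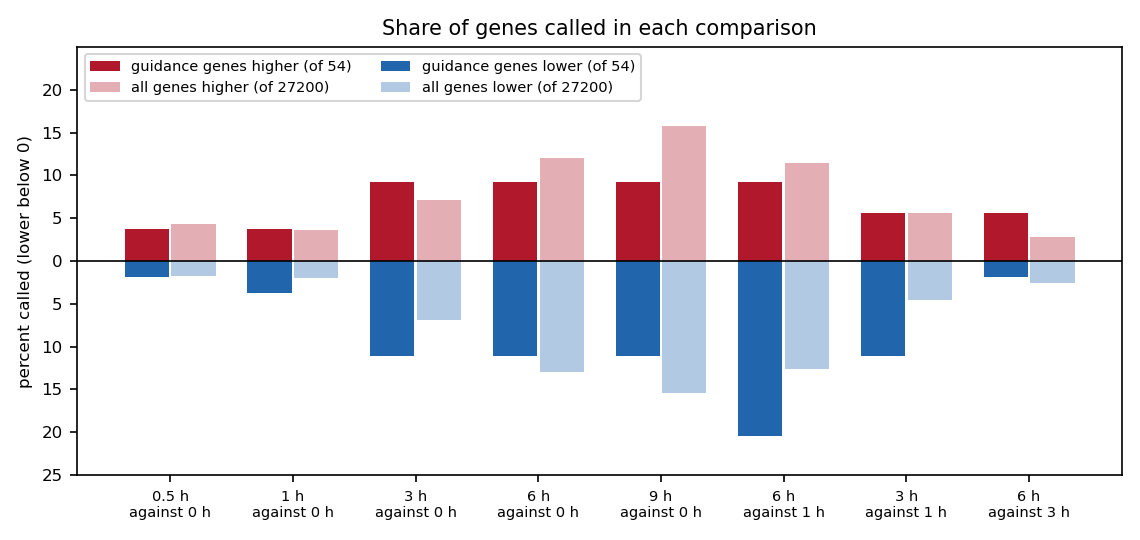
Percent of the 54 tested guidance genes (dark bars) and of all 27200 tested genes (pale bars) called (y axis) in each comparison, with genes higher in the later time-point above 0 and genes lower in it below 0. At 6 h against 1 h 20.4% of the guidance genes were lower, beside 12.6% of all genes. Their count there was 11, and it was 8 without the third array of 1 h and 5 with only the 6 arrays compared.

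The scanning of the arrays limits what the later comparisons with 0 h can show. A single day of scanning covered 0 h and 0.5 h, those of the next 3 time-points together with 2 arrays of 9 h on another, and the last array of 9 h on a day of its own. The comparison of 0.5 h with 0 h therefore lies within a scan day, and so do those of 3 h and 6 h with 1 h and of 6 h with 3 h. From 1 h on, in any comparison with 0 h, the time and the scan day cannot be told apart. No slide held arrays of more than 1 time-point, so a difference between slides could enter any comparison, those within a scan day included. The slide as a random block moved the number of guidance genes called by at most 1 in each comparison with 0 h, and from 16 to 17 at 6 h over 1 h. Its fitted correlation was -0.0125, so the fit hardly differed from the main one. Such a block cannot remove a slide difference between time-points, so these counts do not bear on that difference.

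**Figure D2:**
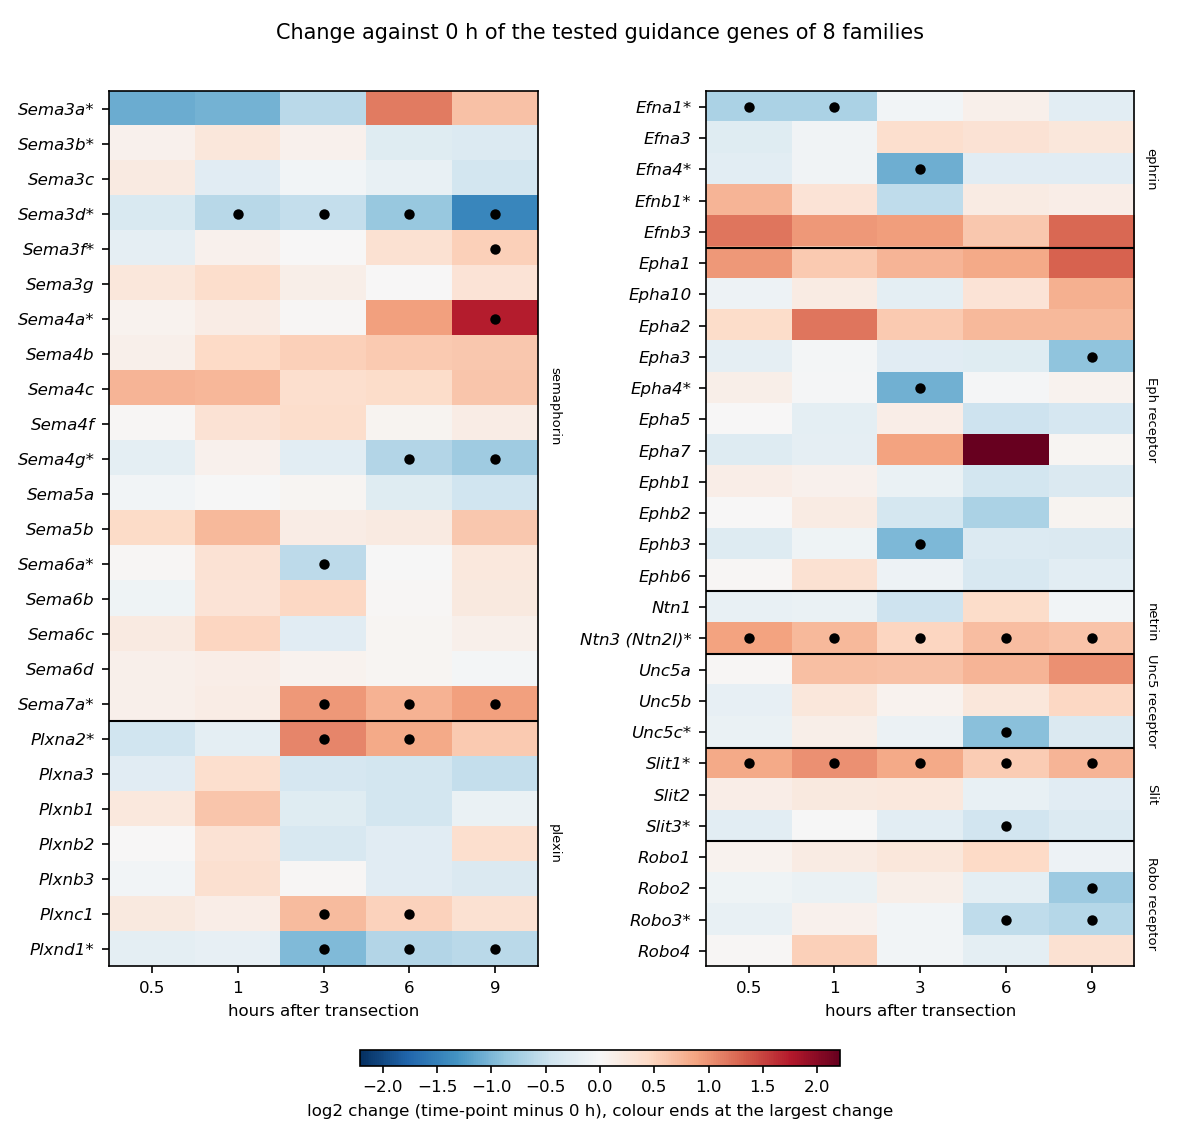
Log2 change of 53 tested guidance genes (rows, grouped by family and without Unc50) at each later time-point (columns, hours) against 0 h, red for higher and blue for lower. Black dots mark called changes and asterisks genes called by the F-test, so that deep colours without a dot, such as Epha7 at 6 h, are changes that missed the test.

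The earliest and most lasting change was a rise of Slit1 and Ntn3. Slit1 is a secreted repellent of the Slit family that binds Robo receptors, and Ntn3 is a secreted netrin. On the 3 arrays of 0 h Slit1 stood at -3.29, -3.37 and -3.13. At 0.5 h it stood at -2.53, -2.42 and -2.30, and at 1 h at -2.13, -2.49 and -2.15. No array of any later time-point reached down to those of 0 h. The rise was 0.85 ± 0.12 (SE of the fit, n = 3 arrays a group) at 0.5 h with an adjusted P of 0.0014, and 1.01 at 1 h with an adjusted P of 0.00028. Slit1 then stayed 0.83, 0.56 and 0.75 above 0 h at 3, 6 and 9 h. Within the second scan day it fell from 1 h to 6 h by 0.45 (adjusted P 0.014), a call that was lost without the first or the third array of 1 h.

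The array carries a pair of Slit1 probes, and only the brighter one gave a signal. The other lay above background on 1 of 18 arrays and is called the dim probe here, so the rise of Slit1 rests on a single probe. Their opening 30 bases, of 60, are shown because the result depends on which of them is read. The brighter probe lies at chr1:246814557-246814617 and the dim one at chr1:246815889-246815948 of the rn4 build that the files use.
Slit1 brighter probe: tattgccctccaggcctcagctcttgcaca
Slit1 dim probe: gttgcatccggaatctatacatcaacaacg
Both come from the deposited scanner files, and no part of them is marked by capitals.

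Ntn3 stood at -1.30, -1.14 and -1.11 at 0 h and at -0.36, -0.36 and -0.14 at 0.5 h. This was its highest mean, 0.90 ± 0.12 above 0 h (adjusted P 0.0010). It remained above all 0 h arrays at 1, 3, 6 and 9 h, by 0.71, 0.47, 0.69 and 0.63. The call at 3 h was the weakest (adjusted P 0.020), and was lost without the first array of 0 h or the first or second of 3 h, and under a shift to the median. Ntn1, the netrin best known as an axon attractant, lay above background on 6 of 18 arrays and no call was made. The netrin receptor Dcc did not pass the filter.

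Efna1, an ephrin-A anchored to the membrane by a lipid, moved the other way in the same early hours. On the 0 h arrays it stood at -2.32, -2.74 and -2.31, and at 0.5 h at -3.17, -3.11 and -3.20. It was lower by 0.71 ± 0.16 at 0.5 h and by 0.70 at 1 h (adjusted P 0.020 at both). From 1 h it rose again, by 0.64 at 3 h and 0.81 at 6 h (adjusted P 0.019, then 0.0021), both within a scan day. At 3, 6 and 9 h its arrays overlapped those of 0 h. The 0.5 h call was lost without the first or the third array of either group, and the 1 h call without the first or the third array of 0 h or the first or second of 1 h, although the arrays of the groups do not overlap. With normexp on all arrays the 1 h value was 0.016. Efna1, Slit1 and Ntn3 were the 3 guidance genes called at 0.5 h.

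Epha4 and Efna4 were low at 3 h and higher again at 6 h. Epha4, an Eph receptor that binds ephrins of both classes, stood at -1.98, -1.11 and -1.48 at 0 h, at -2.74, -2.50 and -2.50 at 3 h, and at -1.58, -1.51 and -1.58 at 6 h. All 3 arrays of 3 h thus lay below every other array. Epha4 was lower at 3 h than at 0 h by 1.05 ± 0.21 (adjusted P 0.0044) and than at 1 h by 1.03 (adjusted P 0.0068), and was higher at 6 h than at 3 h by 1.02 (adjusted P 0.015). The fall and the return both lie within the second scan day. The other 2 probes of Epha4, above background on 8 arrays each, were lower at 3 h by 0.35 and 0.34 and were not called.

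Efna4, an ephrin-A, followed the same course. It stood at -3.91, -3.88 and -3.72 at 0 h and at -4.74, -5.42 and -4.57 at 3 h, and the 3 h arrays were the lowest of all 18. The change at 3 h was -1.07 ± 0.19 against 0 h (adjusted P 0.0024), -0.99 against 1 h (adjusted P 0.0052), and 6 h was higher than 3 h by 0.82 (adjusted P 0.027). The sign turned with normexp on all arrays, to 0.51 at 3 h, and that change was not called. Ephb3, a receptor for ephrin-B ligands, stood at -2.20, -1.81 and -2.09 at 0 h and at -3.15, -3.0 and -2.95 at 3 h. It was lower by 1.00 ± 0.25 at 3 h (adjusted P 0.017), a call lost without the second array of 0 h or the first or second of 3 h, and the F-test did not call it. Its difference between 6 h and 3 h was not called either.

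Sema6a, a transmembrane semaphorin that binds plexin-A receptors, gave a further 3 h low. It stood at -1.40, -0.97 and -1.19 at 0 h, at -1.06, -0.75 and -0.80 at 1 h, and at -2.01, -1.63 and -1.67 at 3 h. The change was -0.58 ± 0.13 against 0 h (adjusted P 0.0094) and -0.90 against 1 h (adjusted P 0.00082), and from 3 h to 6 h it rose by 0.57 (adjusted P 0.024). The second Sema6a probe did not follow. It was 0.60 higher at 3 h, which was not called, and 0.88 higher at 6 h, which was. The 3 h fall is therefore a value of the brightest probe.

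Over all guidance genes within that scan day, 3 were higher and 6 lower at 3 h than at 1 h (background 5.58% and 4.57%), the 6 being Efna4, Epha4, Ephb3, Plxnd1, Sema6a and Sema6c. At 6 h 3 were higher than at 3 h and 1 was lower (background 2.79% and 2.57%). Those 3 were Efna4, Epha4 and Sema6a, and the lower one was Unc5c. These comparisons were added after the values had been seen and were not run under the alternatives.

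**Figure D3:**
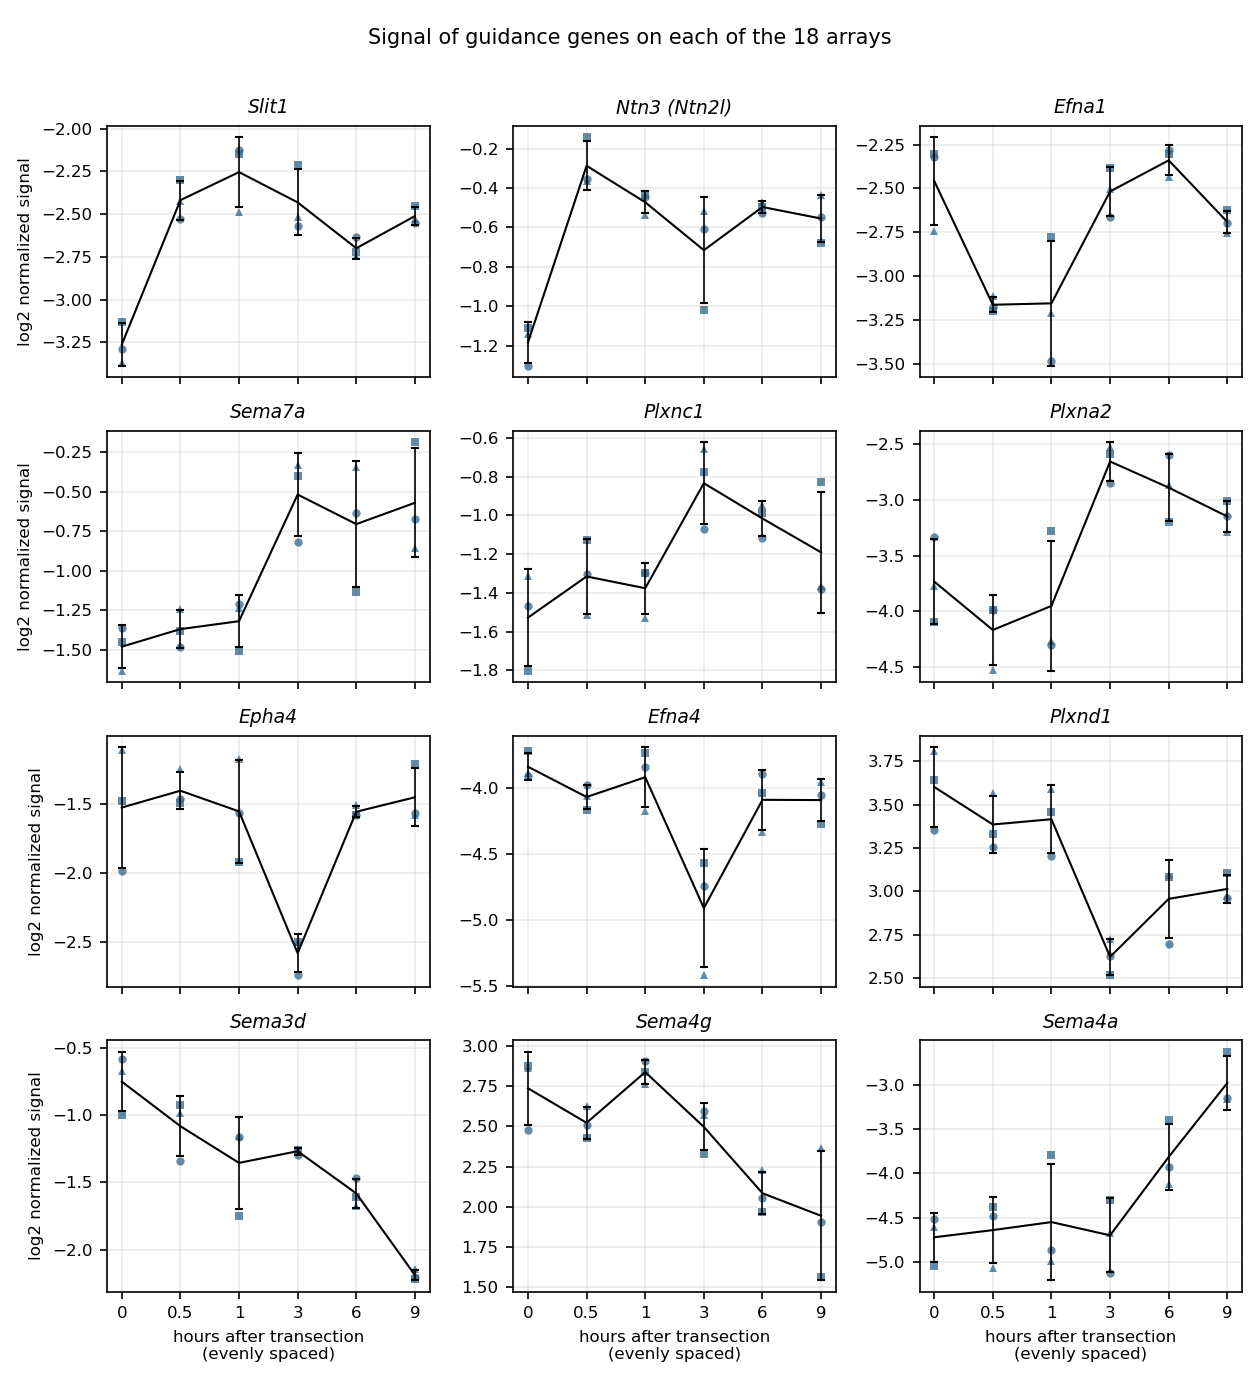
Log2 normalized signal (y axis, a scale of its own in each panel) of 12 guidance genes at each time-point in hours (x axis, evenly spaced). Circles, triangles and squares are replicates 1, 2 and 3, and lines join the means with SD bars (n = 3). The 3 h arrays of Epha4 and Efna4 lie below all others, and the arrays of Slit1 and Ntn3 after 0 h lie above those of 0 h.

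Plxnd1, a plexin receptor best known from blood vessels, where it answers to class 3 semaphorins, fell at 3 h and did not come back to its starting level. It stood at 3.35, 3.81 and 3.64 at 0 h and at 2.63, 2.73 and 2.52 at 3 h. At 3 h the change was -0.98 ± 0.15 (adjusted P 0.00059). It was -0.65 and -0.59 at 6 and 9 h (adjusted P 0.0051 and 0.0070), and no array of these times overlapped those of 0 h. Its second probe was called at 3 h as well, at -1.06, but gave -0.49 and -0.14 at 6 and 9 h, which were not called. Of 7 endothelial markers, none was called at 3 h against 0 h and Kdr and Cldn5 were lower at 9 h. Their summed linear signal was 52.3 to 57.2 at 0 h, 47.0 to 54.4 at 3 h and 38.4 to 39.6 at 9 h, and its part in the fall of Plxnd1 was not tested.

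A small set of genes rose from 3 h. Sema7a, a semaphorin anchored by a lipid that binds integrins and plexin-C1, stood at -1.36, -1.63 and -1.45 at 0 h. At 3 h it stood at -0.82, -0.33 and -0.40, at 6 h at -0.63, -0.35 and -1.14, and at 9 h at -0.67, -0.85 and -0.19. All arrays from 3 h on lay above those of 0 h. At 3 h the rise was 0.96 ± 0.21 (adjusted P 0.0072), and it was 0.78 and 0.91 at 6 h and 9 h (adjusted P 0.013 and 0.0041). The 6 h call was lost without the second array of 0 h or of 6 h, and that at 3 h when the second arrays of 1 h and 3 h were both left out. Plxnc1, its plexin receptor, was higher by 0.69 ± 0.17 at 3 h and 0.51 at 6 h (adjusted P 0.016, then 0.039), though the F-test did not call it. Its arrays stood at -1.47, -1.31 and -1.80 at 0 h and at -1.07, -0.66 and -0.78 at 3 h. A second Plxnc1 probe was called at both times, at 0.99 and 0.97. The 3 h call of the brightest probe was lost without the third array of 0 h or the second of 3 h, and that at 6 h without any of 12 single arrays.

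Plxna2, a plexin-A receptor that serves both class 3 and class 6 semaphorins, stood at -3.33, -3.77 and -4.09 at 0 h and at -2.85, -2.52 and -2.59 at 3 h. It was higher by 1.08 ± 0.27 at 3 h and 0.84 at 6 h (adjusted P 0.017, then 0.032). Within the second scan day it was 1.30 higher at 3 h than at 1 h (adjusted P 0.0080) and 1.06 higher at 6 h than at 1 h (adjusted P 0.011), where normexp on all arrays gave -0.035. The array of 1 h that stood apart was also here the high one, at -3.28 beside -4.31 and -4.27. The 3 h call against 0 h was lost without the second or the third array of 0 h or of 3 h, and that at 6 h without the second or the third of 0 h or the first or second of 6 h. A second probe gave 1.23 and 1.25 at 3 and 6 h without being called. The 6 h call was also lost with a replicate block and under quantile normalization or a shift to the median.

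Leukocyte markers were higher over the same hours, and neutrophil markers earlier too. Of the 5 tested neutrophil markers 2 were higher at 0.5 h and at 1 h and 4 were higher at 3, 6 and 9 h, and the sum of their linear signal lay between 1.43 and 2.40 on the 0 h arrays, between 3.15 and 5.58 on those of 0.5 h, between 9.34 and 22.9 on those of 3 h and between 19.2 and 22.6 on those of 9 h. Of the 6 macrophage markers 1 was lower at 1 h, 1 was higher at 3 h and 2 at 9 h, and their sum lay between 18.4 and 20.9 at 0 h, between 18.6 and 28.4 at 3 h and between 31.3 and 43.1 at 9 h. All 6 macrophage markers and 4 of the 5 neutrophil markers were well above background on all 18 arrays. Their part in the rises of Slit1, Ntn3, Sema7a, Plxnc1, Plxna2 and Sema4a was not tested.

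Sema4a, a transmembrane semaphorin known from immune cells, showed the largest called change of any guidance gene against 0 h, and showed it last. It stood at -4.52, -4.61 and -5.04 at 0 h, at -3.93, -4.12 and -3.40 at 6 h, and at -3.14, -3.17 and -2.63 at 9 h. The arrays of 6 h and 9 h lay above those of 0 h. At 6 h the difference did not pass the test, and at 9 h it was 1.74 ± 0.32 (adjusted P 0.0012). Without the third array of 1 h, which stood at -3.80 beside -4.87 and -4.99, the rise of Sema4a at 6 h was also called, at 0.91 (adjusted P 0.019). Sema3f, a secreted semaphorin that binds neuropilin-2, was higher at 9 h by 0.53 ± 0.16 (adjusted P 0.017). It stood at -0.92, -0.98 and -0.92 at 0 h and at -0.31, -0.45 and -0.45 at 9 h. The call was lost under a shift to the median, at 0.36, and without the second or the third array of 0 h or the first of 9 h.

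The steadiest fall was that of Sema3d, a secreted class 3 semaphorin. It stood at -0.58, -0.67 and -1.0 at 0 h and at -1.16, -1.15 and -1.75 at 1 h. At 3 h its arrays lay between -1.30 and -1.25 and at 6 h between -1.67 and -1.46. The 9 h arrays, at -2.20, -2.15 and -2.22, were the lowest of all 18. From 1 h on, all its arrays lay below those of 0 h. The change was -0.83 ± 0.16 at 6 h (adjusted P 0.0019) and -1.44 at 9 h (adjusted P 2.5e-05). The smaller falls at 1 h and 3 h, by 0.61 and 0.52, were called with adjusted P of 0.042 and 0.045. Each was lost without any of 10 single arrays, and leaving out the third array of 1 h moved the 1 h value to -0.41. By the F-test Sema3d had the smallest P of all guidance genes (adjusted P 0.00019).

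A second probe showed the fall of Sema3d as well. It gave -0.99 at 6 h and -1.56 at 9 h, both called. The opening 30 bases of both probes are given as the pair of sequences that carry this result, from chr4:18641839-18641898 for the brighter and chr4:18665766-18665825 for the other on rn4.
Sema3d brighter probe: tttttgtcatggttagaatactaatcatat
Sema3d other probe: ttcccagatgatgttatcagtttcataagg
Both were read from the scanner files. Fibroblast and SC markers were lower at the same time. Of the 8 fibroblast and perineurium markers 7 were lower at 9 h, and the sum of their linear signal lay between 1328 and 1418 at 0 h and between 924 and 984 at 9 h. Of the 12 SC markers 5 were lower at 9 h, with sums of 908 to 1083 at 0 h and 723 to 820 at 9 h. Their part in the fall of Sema3d was not tested.

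Several receptors and ligands fell late by smaller steps. Sema4g, a transmembrane semaphorin, stood at 2.47, 2.86 and 2.87 at 0 h, at 2.06, 2.23 and 1.97 at 6 h and at 1.90, 2.36 and 1.57 at 9 h, with no overlap. It was lower by 0.65 ± 0.17 at 6 h and 0.79 at 9 h (adjusted P 0.012, then 0.0029), and by 0.75 at 6 h against 1 h (adjusted P 0.0054). Its second probe differed, with 0.13 at 6 h and 1.07 at 9 h, neither called. The pair is shown because the direction depends on the probe, the brighter one at chr1:250068834-250068893 and the other at chr1:250064025-250064084 on rn4.
Sema4g brighter probe: tccaccccacaatgaatgtatttattgtga
Sema4g other probe: gctgcgagtggagtcatccagtttcctctg
No annotation of rn4 was used here, so no probe was assigned to a part of its gene.

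Of the Robo receptors, Robo3 and Robo2 were lower late. Robo3 stood at 0.29, 1.03 and 0.81 at 0 h and at -0.21, 0.35 and 0.09 at 9 h, so the groups overlap. It was lower by 0.57 ± 0.18 at 6 h and 0.63 at 9 h (adjusted P 0.034, then 0.016), and the first of these was lost in 15 of 29 alternatives that did not use normexp. The 9 h call was lost without the second or the third array of 0 h or the first or the third of 9 h. Robo2 stood at -3.25, -3.09 and -3.05 at 0 h and at -3.97, -3.47 and -4.36 at 9 h, lower by 0.80 ± 0.21 (adjusted P 0.011), a call lost without the third array of 9 h. Robo1 and Robo4 were called in no comparison. Of the Slits, Slit3 was lower at 6 h by 0.42 ± 0.10 (adjusted P 0.0089) and Slit2 was not called against 0 h, so that within the Slit family Slit1 rose and Slit3 fell.

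Unc5c, a repulsive netrin receptor, was low at 6 h. It stood at -1.80, -1.04 and -1.61 at 0 h and at -2.61, -2.39 and -2.25 at 6 h, and it was at -1.80, -1.46 and -2.14 at 9 h. It was lower at 6 h by 0.93 ± 0.21 against 0 h (adjusted P 0.0054), by 1.07 against 1 h (adjusted P 0.0025) and by 0.81 against 3 h (adjusted P 0.042). Unc5a and Unc5b were not called. Epha3, a receptor for ephrin-A ligands, stood at -3.99, -3.49 and -3.63 at 0 h and at -4.55, -4.86 and -4.35 at 9 h, and was lower by 0.89 ± 0.23 (adjusted P 0.010), though the F-test did not call it.

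The arrays of 1 h and 6 h share a scan day but lie on a slide each, so time and slide cannot be told apart here. This comparison was chosen with earlier results of these data known. At 6 h 5 guidance genes were higher than at 1 h (background 11.4%) and 11 were lower (background 12.6%). Of the 5, Sema3a and Epha7 were above background on no array of 1 h. Among the 43 guidance genes above background on all 18 arrays 3 were higher and 14 lower, with no share of all genes computed under that filter. In the main fit the 11 lower ones made up 20.4% of the 54. The median change over all 54 was -0.24, where that of all genes was -0.05. Quantile normalization gave 3 higher and 13 lower. The 11 were Ephb6, Plxna3, Plxnb1, Plxnb3, Plxnd1, Robo3, Sema3b, Sema4g, Slit1, Slit3 and Unc5c. Of the 7 tested plexins, receptors for semaphorins, 4 were thus lower and 1, Plxna2, was higher. The third array of 1 h bears on this. Plxnb1 stood on it at 0.29, beside -0.86 and -1.33 on the other 2, and Plxna3 at -2.60 beside -3.42 and -3.77. Plxnd1 did not stand apart on it, at 3.46 beside 3.20 and 3.59. Without that array the count was 5 higher and 8 lower, and none of Plxna3, Plxnb1, Plxnb3, Plxnd1, Ephb6 and Slit1 was called. Of the 11, Sema4g, Unc5c, Robo3, Sema3b and Slit3 remained called as lower, and the rest of the 8 were not among the 11.

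The SC markers fell in the same comparison, 7 of 12 lower at 6 h than at 1 h, with summed linear signals of 1013 to 1217 at 1 h and 772 to 814 at 6 h. Sema3b, a secreted semaphorin, stood at 5.87, 5.65 and 5.77 at 1 h and at 5.30, 5.28 and 5.15 at 6 h, lower by 0.52 ± 0.13 (adjusted P 0.0086), a call lost under a shift to the median. Plxnb3, a plexin known from glial cells, went from 2.08, 1.71 and 2.27 to 1.36, 1.40 and 1.47, lower by 0.61 ± 0.16 (adjusted P 0.013). Ephb6, an Eph receptor without kinase activity, went from 2.22, 1.89 and 2.18 to 1.50, 1.46 and 1.29, lower by 0.68 ± 0.19 (adjusted P 0.018). That call was lost without the first or the third array of 1 h or the third of 6 h and under a shift to the median, and a second probe, above background on 7 arrays, gave -0.09. In none of the 3 did the arrays of 1 h and 6 h overlap, and the part of the SC markers in these values was not tested.

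The genes higher at 6 h than at 1 h were Efna1, Plxna2, Sema7a, Sema3a and Epha7, and the last pair was dim. The call of Sema7a, at 0.61 (adjusted P 0.041), was lost in 21 of 31 alternatives that did not use normexp. Sema3a, the classic secreted repellent of sensory axons, was well above background on 9 of 18 arrays, including all 3 of 6 h. It stood at -3.44, -5.28 and -5.64 at 6 h, and on no array of 0.5 h or 1 h was it well above background. Its level at 6 h was therefore at least 1.39-fold higher than at 0.5 h and at least 1.67-fold higher than at 1 h, where the bound sets the 6 h mean against the lowest signal among probes well above background, or the probe's own value where that was higher. The bounds rest on the first array of 6 h. Without it there was no bound against 0.5 h, and that against 1 h was 1.04-fold. Epha7 at 6 h stood at -3.97, -6.55 and -2.01, and its bound was at least 2.55-fold higher than at 1 h. Without the third array of 6 h the bound was 1.20-fold. Its call was lost in 18 of 30 alternatives that did not use normexp, those without the first or the third array of 6 h among them. Both genes were tested only because they passed the background filter at the late time-points where they are high, so their values are given as a description with no P-value. For Sema3a normexp on all arrays turned the sign of the difference, to -0.41.

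Efnb1, an ephrin-B with a cytoplasmic tail, passed the F-test (adjusted P 0.024) with no single contrast against 0 h. It stood at -0.03, 0.26 and -0.06 at 0.5 h and at -0.89, -1.10 and -1.77 at 3 h. These groups do not overlap, but the call was lost without any of 11 single arrays. Most Eph receptors gave no call. Epha1, Epha2, Epha5, Epha10, Ephb1 and Ephb2 were called in no comparison given here, nor were Sema3c, Sema3g, Sema4b, Sema4c, Sema4f, Sema5a, Sema5b, Sema6b, Sema6d, Plxnb2 and Efnb3. Efnb3, for example, lay between -6.04 and -5.73 on the 0 h arrays and between -5.42 and -3.61 on those of 9 h, and all arrays of 9 h lay above those of 0 h without the difference passing the test. Sema5a was carried by 6 tested probes. The brightest gave -0.43 at 9 h and was not called, while 2 of the other 5 were called at -0.47 and -0.48 and the dimmest gave 0.57.

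In all, 18 guidance genes had at least 2 tested probes, which made 23 pairs of the brightest and another probe. In 8 of these pairs the brightest probe was called against 0 h, at 16 combinations of pair and time-point, 4 of them in Sema3d and 3 in Plxnd1. The other probe had the same sign in 13 of the 16 and was itself called in 5, and at none were both called in opposite directions. The 3 with opposite signs were Sema4g at 6 h and 9 h and Sema6a at 3 h. In Plxnb1 the second probe alone was called at 6 h, at 1.07, where the brightest gave -0.41, and in Efna3 the second probe alone was called at 9 h, at 1.06, where the brightest gave 0.26. A probe of a gene with several transcripts reads only those that hold its bases.

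**Figure D4:**
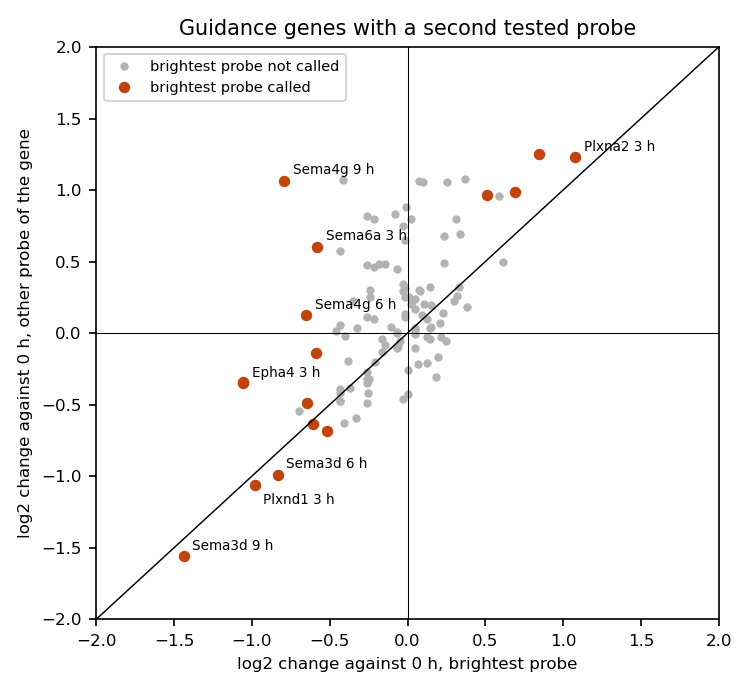
Log2 change against 0 h of the brightest probe (x axis) and of another tested probe of the same gene (y axis), 1 point for each pair and each of 5 time-points, with the line of equal change. Orange points, called by the brightest probe, lie near the line for Sema3d (-1.44 and -1.56 at 9 h), and off it for Sema4g (-0.79 and 1.07 at 9 h) and Sema6a.

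Some members lie side by side in the genome. On rn4 the probes of Efna1, Efna3 and Efna4 lie on chromosome 2 between 181448658 and 181522897, with 47.4 kb and 26.6 kb between neighbours. Their courses differed, since Efna1 was low at 0.5 h and 1 h, Efna4 at 3 h, and Efna3 was called by its brightest probe at no time. The probes of Robo4 and Robo3 lie 4.84 kb apart on chromosome 8, and Robo3 alone was called. Those of Sema3b and Sema3f lie 89.1 kb apart on chromosome 8, where Sema3b was lower at 6 h than at 1 h and Sema3f was higher at 9 h than at 0 h.

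For 47 of the 61 genes the RefSeq tables give a promoter window on the GRCr8 build, from 250 bases before the start of the gene to 50 after it. The windows were searched on both strands for a few motifs of factors known to respond early to injury. TGANTCA (AP-1) was in 1 of 47, Epha10, and in 7.33% of all promoters, and GGGANTTCC (NF-kB) was in 1 of 47, again Epha10, and in 1.64% of all. TGACGTC (cAMP response element) was in 2 of 47, Epha2 and Sema3d, and in 3.22% of all. GCGTGGGCG (EGR) was in 3 of 47, Efna3, Plxna2 and Sema6d, and in 0.544% of all, and GCGGGGGCG, a second form of it, in 4 of 47, Efna1, Epha1, Plxna2 and Plxnb2, and in 2.73% of all. The plain TATAAA was in none of 47 and in 14.2% of all. Plxna2 alone held both EGR forms, at -98 and -85 from the start of the gene, and Sema3d held its match at -80. Both windows are printed up to the base before the start, since Plxna2 rose and Sema3d fell, with the matches in capitals. They lie at chr13:108691280-108691529 on the plus strand and chr4:23460972-23461221 on the minus strand of GRCr8.
Plxna2 promoter: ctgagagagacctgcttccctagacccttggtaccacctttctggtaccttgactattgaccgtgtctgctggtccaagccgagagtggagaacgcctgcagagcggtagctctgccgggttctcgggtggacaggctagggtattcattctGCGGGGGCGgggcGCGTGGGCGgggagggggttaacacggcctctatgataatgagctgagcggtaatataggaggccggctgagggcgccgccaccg
Sema3d promoter: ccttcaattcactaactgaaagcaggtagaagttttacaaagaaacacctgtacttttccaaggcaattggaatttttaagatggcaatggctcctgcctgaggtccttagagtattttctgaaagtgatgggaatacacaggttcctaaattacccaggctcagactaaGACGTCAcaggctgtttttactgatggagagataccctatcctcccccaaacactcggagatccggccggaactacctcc
A match describes the letters of the window and shows no binding.

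The partners of these molecules gave a view of the rest of the pathway. Of 15 tested co-receptors and other ligands 8 were called by the F-test (53.3%, beside 34.6% of all genes). At 9 h 1 was higher and 3 were lower than at 0 h, which is 6.67% and 20% beside 15.8% and 15.4% of all genes, and their median change was -0.30 beside 0.01 for all genes. The strongest was Cntn2, a contactin of the juxtaparanode of myelinated axons that was lower at every time, by 0.54 at 0.5 h and by 1.61 at 9 h. L1cam, an adhesion molecule and part of semaphorin receptor complexes, was lower by 0.67 at 9 h, whereas Nrcam, an adhesion molecule of the same family, was higher by 0.82. Nrp1, the neuropilin that binds Sema3a, was lower at 3 h by 0.60 (adjusted P 0.040), and Nrp2 was not called. Neo1, a netrin and Rgm receptor, was lower at 6 h by 0.67 (adjusted P 0.0071).

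Of 42 tested effectors, the enzymes and cytoskeletal proteins that carry guidance signals inside the cell, 18 were called by the F-test (42.9%, beside 34.6% of all genes). At 6 h 4.76% were higher and 26.2% lower than at 0 h, beside 12.0% and 13.0% of all genes. At 9 h 7.14% were higher and 19% lower, beside 15.8% and 15.4% of all genes. The median change of the list was -0.21 at 6 h, where that of all genes was 0.01. Rnd1, a small GTPase that binds plexins, was the one effector higher at every time-point, by 2.67 at 1 h and 3.03 at 6 h (adjusted P 0.00028, then 1.9e-05). Dpysl3, a collapsin response mediator protein, was lower by 1.30 at 6 h (adjusted P 0.00086), and Dpysl2, a relative of it, was lower by 0.35 (adjusted P 0.030). Pak3, a kinase downstream of Rac and Cdc42, was lower by 2.01 at 9 h (adjusted P 0.0023). Limk2, which phosphorylates cofilin, and Cfl1, cofilin itself, were higher at 9 h by 0.42 and 0.79.

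The marker lists of resident cells had medians below 0 at these times as well, with few calls at 6 h. There the median change was -0.33 for fibroblast and perineurium markers, of which 1 of 8 was higher and 3 lower. It was -0.30 for SC markers, of which 1 of 12 was higher and 2 lower (16.7%, beside 13.0% of all genes), and -0.26 for endothelial markers, of which 1 of 7 was lower (14.3%). At 9 h 7 of the 8 fibroblast and perineurium markers were lower, with a median of -0.52, and so were 5 of 12 SC and 2 of 7 endothelial markers. Of the 5 tested neuron and axon markers 2, Nefl and Nefm, were higher at 9 h, and the sum of the list lay between 1.99 and 2.61 at 0 h and between 3.47 and 4.15 at 9 h. None of the 3 adipocyte markers was called. The part of these markers in the changes of co-receptors and effectors was not tested.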

How the data were processed

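RNA of proximal nerve segments was measured on 18 Agilent one-colour arrays, grouped by the labels into 6 time-points. The authors deposited the scanner output of Feature Extraction (version 10.5.1.1 in the files, 9.5.3 in the methods). The intensity that the authors deposited is the software's processed signal on a linear scale, with background subtracted and trends within the array removed before deposit, and it is not normalized between arrays. A table of log2 values from the authors, with the same distribution on every array, was deposited too. The scanner flags for controls, outliers and spots well above background were used as deposited.

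Spots marked as controls or outliers were removed, the log2 of each intensity was reduced by the array's 75th percentile, and repeated spots were averaged. Probes were kept where each array of some time-point passed the scanner's background flag. They were tested with limma in 1 model for all time-points, with moderated F-tests and contrasts (prior degrees of freedom 1.94) and Benjamini-Hochberg adjusted P-values. The members and lists were chosen with earlier results of these data known. The rule for named genes took those called by the F-test and changed at least 2-fold at a time-point, those called at 0.5 h, in each family the called gene with the largest change and that with the smallest P, genes without a tested probe, and genes whose called probes disagree. The other named genes were chosen after their values were seen. Of 61 gene names, 40 matched RefSeq by accession, 20 by symbol and 1 by synonym.

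In a test on simulated data, where 200 of 31910 probes were changed, 6 h against 0 h recovered 57% of the 2-fold and 85% of the 4-fold changes and called 5 unchanged probes. Its noise was drawn for each probe alone, with no differences between arrays, slides or scan days. Far fewer probes changed in it than were called in the data. It therefore does not give the recovery or the false calls of the comparisons made here. Between 65.9% and 93.5% of spots lay well above background on an array. Replicate numbers were not taken as pairs, since the methods name none. Same-numbered arrays of different times correlated between -0.26 and 0.56 in their deviations. The mean was 0.071, beside -0.032 for arrays of different numbers. Alternatives were normexp (offset 50), the deposited matrix, quantile or median scaling, other filters and thresholds, replicate, scan day and slide blocks, array weights, a robust prior, only the 6 arrays compared, and each array left out in turn. R 4.3.3, limma 3.58.1, data.table, Python and matplotlib were used.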

Additional observations from a re-analysis of the deposited data

How the results depend on the processing

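Of the 56 called changes of single genes against 0 h or between 6 h and 1 h, 20 kept their call at the same threshold in every alternative without normexp in which the probe was tested, among them Slit1 at all times against 0 h, Sema3d at 6 h and 9 h, Epha4 and Efna4 at 3 h, and Sema4a at 9 h. Normexp took the F-test from 19 guidance genes to 5. Against 0 h the counts at 0.5, 1, 3, 6 and 9 h went from 3, 4, 11, 11 and 11 to 1, 1, 4, 2 and 5, and the 6 h calls over 1 h from 16 to 2. On the second arrays of 1 h and 3 h it left the dimmest probes at -1.79 and -0.908, where the other 16 arrays lay between -4.77 and -3.91. With its parameters fitted by maximum likelihood the counts were 4, and 1, 1, 4, 2, 5 and 1. Without those 2 arrays normexp called 19 in the F-test and 3, 3, 4, 10, 13 and 15 in the comparisons, and without both normexp and those arrays the counts were 18 and 3, 2, 6, 9, 11 and 16. All reversed values came with normexp, by default and by maximum likelihood: Efna1 at 1 h 0.016 and 0.011, Efna4 at 3 h 0.51 and 0.49, Plxna2 at 6 h against 1 h -0.035 and -0.031, and Sema3a there -0.41 and -0.40. Requiring a 2-fold change left 7 in the F-test, Sema3a among them. It left 0, 1, 3, 0 and 2 against 0 h and 5 at 6 h against 1 h, Sema3a and Epha7 among the last. Array weights gave 26 in the F-test, 5 at 0.5 h and 16 at 9 h. Only the 6 arrays compared gave 2 at 1 h and 5 at 6 h against 1 h, and the second scan day alone gave 11 there. Leaving out an array gave 15 to 23 in the F-test, 2 to 3 at 0.5 h, 2 to 4 at 1 h (2 without the first of 0 h), 6 to 11 at 3 h (6 without the second of 3 h), 8 to 13 at 6 h, 9 to 13 at 9 h and 12 to 18 at 6 h against 1 h. A shift to the median moved the median of all probes at 9 h from 0.0191 to -0.152 and turned the split, 5 higher and 6 lower at either time, into 3 to 7 at 6 h, then 3 to 9 at 9 h. Quantile normalization split the calls 3 to 6 at 6 h, 2 to 1 at 1 h, and 3 to 13 for 6 h over 1 h. With a replicate block the counts were 20 in the F-test and 4, 5, 11, 10, 12 and 19, and 10 of 18 arrays correlated best with their own number. The number of arrays and, for dim genes such as Sema3a, Epha7 and Efnb3, the signal over background limit these calls.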
